A study of Vitis vinifera with 15 samples.

Results

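Vines of “Gaglioppo”, a cultivar of Vitis vinifera, on the rootstock 41B (GAG-41B) were compared with vines of the same scion on Kober 5BB (GAG-KOB) by the RNA of their leaves. Of the 15 RNA-Seq libraries, the 6 of these combinations were chosen by their rootstock labels, 3 for each (A, B and C). All vines carried the same clone of the scion and were 3 years old. 41B is a cross of V. vinifera with V. berlandieri and Kober 5BB a cross of V. riparia with V. berlandieri. No treatment was applied, and the leaves were labelled as non-senescing and were picked at the end of August. Each library was made from poly(A) RNA of a pool of 2 fully expanded leaves from each of 3 plants, so that it is a pool and not a single vine. The combinations stood in adjacent blocks of a single vineyard in Calabria, and the place of a block and its rootstock cannot be told apart. The other 9 libraries (GAG-1103P, GAG-3309C and GAG-17-37, 3 of each) enter the estimate of the spread and show where both combinations stood.

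Grapevine leaves answer pathogens, UV light and wounding with stilbenes such as resveratrol, which stilbene synthases make from the products of phenylalanine ammonia-lyase, cinnamate 4-hydroxylase and 4-coumarate-CoA ligase. Perception runs through receptor kinases at the cell surface and NBS-type proteins inside the cell, and signals pass through calcium, jasmonate, salicylate and WRKY factors. Pathogenesis-related (PR) proteins, among them chitinases, glucanases, thaumatins and PR-10 proteins, are late products of these responses.

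The deposited values are FPKM, in which the fragments counted for a gene are divided by its length and by the depth of the library, and they cover 29970 genes. They were analyzed as log2(FPKM + 0.1) in one limma model of all 15 libraries, for the 21364 genes whose mean reached 0.1 FPKM. Fold changes are GAG-41B minus GAG-KOB on this scale, which understates the changes of low genes. Genes with an adjusted p of at most 0.05 by the two-sided limma test (Benjamini-Hochberg, over all genes tested) were called DEGs (differentially expressed genes), and those that also changed by 2 or more on the log2 scale 4-fold DEGs. The p-values measure the spread between pools of the same blocks.

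Between 20594 and 20631 genes had at least 0.1 FPKM in the GAG-41B libraries and between 20684 and 20718 in those of GAG-KOB. The FPKM summed over all genes was 2208240 to 2221130 in GAG-41B and 1712240 to 1797630 in GAG-KOB, without overlap. A single gene without annotation, Vv19s0014g02740, made up 14.6% of this gap and the stilbene synthase gene Vv16s0100g00950 6.26%. Over all genes the log2 fold change had a median of 0.01 with the deposited values and of -0.29 with each library scaled to the same FPKM total. Replicates B and C were closer to each other than to A in both combinations, with a scaled median absolute deviation of their log2 differences of 0.12 for B against C and 0.22 to 0.23 for A against either. Among genes under 0.12 FPKM, 194 of 373 had the same ratio of C to B in GAG-41B and 206 of 480 in GAG-KOB (within 0.015 on the log2 scale), as values made of single reads would have. For the ratio of A to B it was only 19 of 344 and 20 of 463. Taken within each letter, 517 to 522 of the 524 higher and 409 to 412 of the 414 lower 4-fold DEGs kept their direction. These genes were called on the same libraries, so that this agreement was largely given in advance. Actin (Vv04s0044g00580) had 868 to 898 FPKM in GAG-41B and 828 to 858 in GAG-KOB, and ubiquitin (Vv16s0098g01190) 938 to 942 and 926 to 1042. Neither was a DEG (adjusted p = 0.315 and 0.369, limma).

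GAG-41B and GAG-KOB differed in 11357 genes (53.2% of those tested), 5892 higher (27.6%) and 5465 lower (25.6%) in GAG-41B. With the same FPKM total in each library the split was 3112 higher and 9404 lower, so that the balance of directions over all genes depends on the scaling. At the 4-fold limit 938 genes were called (4.39%), 524 higher (2.45%) and 414 lower (1.94%). With the same total these were 350 and 611. Of the 32 lists of genes described below, the auxin genes alone changed the sign of their median under this scaling (0.23 to -0.08). The 3 values of GAG-41B lay above those of GAG-KOB in 6782 genes (31.7%) and below them in 6038 (28.3%). A share of 53.2% called in the background means that a single call says little about a list, and the lists below are read by their balance of directions and the size of their changes.

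Annotations were at hand for the 2692 genes that the study selected on these libraries, mostly for differences between GAG-41B and GAG-1103P. Of these, 1469 were higher in GAG-41B (54.6%) and 926 lower (34.4%), with a median log2 fold change of 0.82, against 0.00 over the genes tested outside them. They are therefore not independent evidence of a direction, and 294 of the 938 4-fold DEGs, 164 higher and 130 lower, lie outside them. By category, response to stress held 179 higher and 53 lower genes of 256, signal transduction 182 and 52 of 263, and secondary metabolism 137 and 59 of 216. Transcription factor activity (106 and 88 of 208), developmental process (41 and 45 of 100) and cell wall metabolism (24 and 27 of 59) were close to balance. DNA and RNA metabolism had 31 higher and 40 lower genes of 81. The plot of calls in each list shows the same for 32 narrower groups of genes. Each list was drawn from the annotated genes, so that its counts stand beside their shares of 54.6% higher and 34.4% lower. Of all genes tested 27.6% were higher and 25.6% lower.

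**Figure D1:**
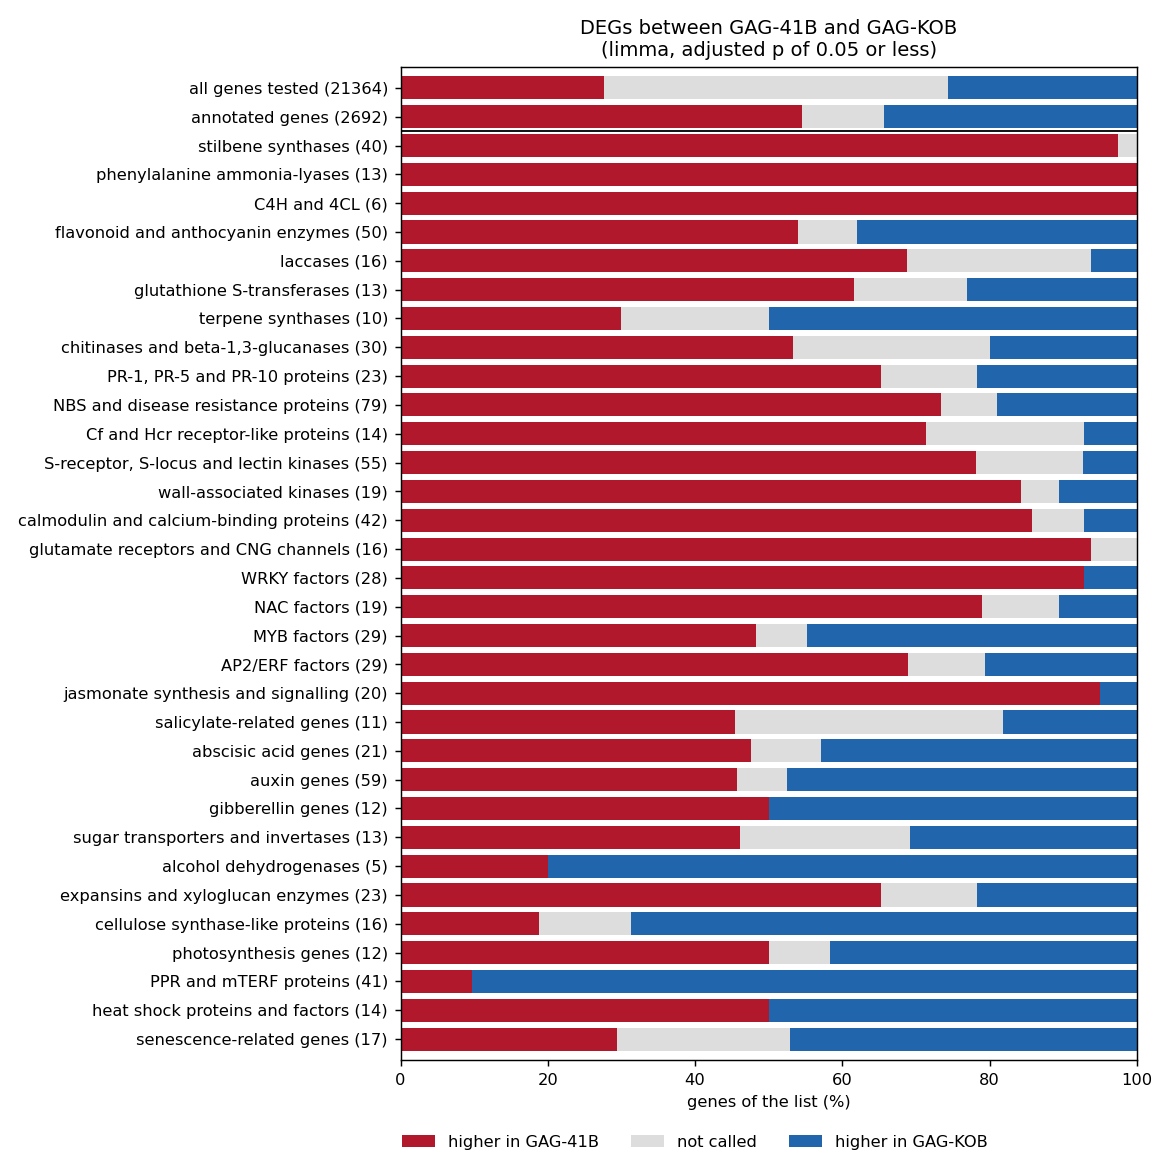
Share of the genes of each list (x axis, %) that were DEGs with higher expression in GAG-41B (red), not called (grey) or DEGs with higher expression in GAG-KOB (blue), with the number of genes in parentheses; the bars above the line are all 21364 genes tested and the 2692 annotated genes. Stilbene synthases, phenylalanine ammonia-lyases, WRKY factors and jasmonate genes were mostly red, whereas PPR and mTERF proteins, cellulose synthase-like proteins and alcohol dehydrogenases were mostly blue.

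The stilbene pathway was higher in GAG-41B nearly throughout. Of 40 genes annotated as stilbene synthases, 39 were higher in GAG-41B and none lower, and all 39 reached 4-fold. Of all genes tested 27.6% were higher and 2.45% at 4-fold. Of the 2692 annotated genes, from which every list was drawn, 54.6% were higher and 360 genes were 4-fold higher. Their log2 fold changes lay between 2.05 and 3.71, a narrow range for so many genes, with a list median of 3.17. The remaining member, Vv15s0021g02170, had under 1 FPKM in both combinations (adjusted p = 0.590, limma) and was named after its values were seen. Summed over the list, stilbene synthases had 54866 to 56378 FPKM in GAG-41B and 5606 to 5762 in GAG-KOB, which is 2.47 to 2.55% and 0.314 to 0.336% of all FPKM. The sum was 381 to 418 FPKM in GAG-1103P, and for each of the 40 genes the mean was highest in GAG-41B and second in GAG-KOB. GAG-KOB was thus high beside the other combinations and still 9.81 times below GAG-41B. Stilbene synthase genes are near copies of each other, and how the reads were divided among them is uncertain, so that the sum is safer than any single gene. Much of the sum was nevertheless assigned to a single gene, Vv16s0100g00950. Its mean was 31109 of 55589 FPKM in GAG-41B and 2900 of 5668 in GAG-KOB, so that the sum largely follows this gene.

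The values of single members follow the sum. The gene with the largest change, Vv16s0100g00770, had 489, 445 and 454 FPKM in GAG-41B and 39.1, 35.0 and 31.8 in GAG-KOB, a difference of 3.71 on the log2 scale (standard error 0.12, adjusted p = 5.71e-11, limma). Vv16s0100g01020 had 1012, 976 and 949 FPKM against 81.3, 77.8 and 79.4 (3.62, standard error 0.09). The 3 values of each group were close together and far from those of the other group. VvSTS16 (Vv16s0100g00920) had 311, 308 and 311 FPKM in GAG-41B and 43.3, 44.3 and 39.3 in GAG-KOB. VvSTS48 (Vv16s0100g01200) had 603, 573 and 575 against 109, 110.5 and 107. Their log2 fold changes, 2.87 (standard error 0.07) and 2.42 (standard error 0.07), were in the lower part of the range of the list. A chalcone synthase (Vv16s0100g00860), by its annotation the first enzyme of the flavonoid branch, had 2333, 2267 and 2286 FPKM against 189.8, 187 and 191 (log2 fold change 3.60, standard error 0.04). Its identifier falls inside the run of stilbene synthases on chromosome 16 described below. Whether it encodes a chalcone synthase or a stilbene synthase was not tested, and by its annotation it is counted among the flavonoid enzymes. The MYB factor MYB14 (Vv07s0005g03340), known in grapevine as an activator of stilbene synthase promoters, had 493, 554 and 542 FPKM against 75.8, 85.4 and 87.0 (log2 fold change 2.68, standard error 0.08, adjusted p = 5.88e-11, limma).

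The enzymes before stilbene synthase rose with it, by less. Phenylalanine ammonia-lyases, which open the phenylpropanoid pathway, were higher in GAG-41B in 13 of 13 genes, 9 of them at least 4-fold (median 2.65). The largest change was that of Vv16s0039g01100, with 274, 296 and 298 FPKM in GAG-41B and 37.1, 38.5 and 37.8 in GAG-KOB (log2 fold change 2.93, standard error 0.07). Of the cinnamate 4-hydroxylases and 4-coumarate-CoA ligases 6 of 6 were higher and none at 4-fold (median 1.32). The cinnamate 4-hydroxylase gene Vv06s0004g08150 led this list with 1425, 1672 and 1653 FPKM against 423, 484 and 465 (1.79, standard error 0.09). Laccases, copper oxidases with a part in lignin and phenolic polymers, had 11 higher and 1 lower gene of 16. The laccase gene Vv18s0122g00690 had 21.9, 21.4 and 20.1 FPKM against 4.66, 3.56 and 3.82 (2.38, standard error 0.16). Of the glutathione S-transferases, which conjugate phenolics and toxic compounds, 8 were higher and 3 lower of 13. GSTU7 (Vv16s0039g01070) had 6274, 6601 and 6564 FPKM against 1974, 2197 and 2221 (1.61, standard error 0.08), whereas GSTU19 (Vv19s0093g00310) had 48.2, 45.2 and 45.4 against 153, 165 and 179 (-1.83, standard error 0.08).

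The flavonoid and anthocyanin enzymes did not move as a block. Of 50 genes, 27 were higher (9 at 4-fold) and 19 lower (13 at 4-fold). This split was near that of the annotated genes, with 54.6% higher and 34.4% lower, and is not particular to the list. The DEGs of the list lower in GAG-41B had a median log2 fold change of -2.23, the higher ones 1.40. The largest decrease with a mean of at least 1 FPKM was that of an anthocyanidin 3-O-glucosyltransferase (Vv12s0055g00290), a type of enzyme that stabilizes anthocyanins, with 0.167, 0.0959 and 0.0468 FPKM in GAG-41B and 1.99, 1.64 and 2.203 in GAG-KOB (-3.37, standard error 0.19). Terpene synthases were few and low. Of 10, 3 were higher and 5 lower. A linalool synthase (Vv00s0271g00060) had 12.2, 12.1 and 11.9 FPKM against 1.24, 1.01 and 1.79 (3.11, standard error 0.32), and a gene annotated as ent-kaurene synthase (Vv00s1319g00010) 0, 0.192 and 0 against 2.05, 2.41 and 2.57. The phenylpropanoid genes higher in GAG-41B therefore stood beside some flavonoid and terpene genes that were higher in GAG-KOB. Both lists were still higher in GAG-41B in sum. The flavonoid enzymes had 5828 to 5994 FPKM against 2229 to 2322, of which the chalcone synthase Vv16s0100g00860 had means of 2295 and 189. The terpene synthases had 91.3 to 96.4 FPKM against 63.7 to 69.7.

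**Figure D2:**
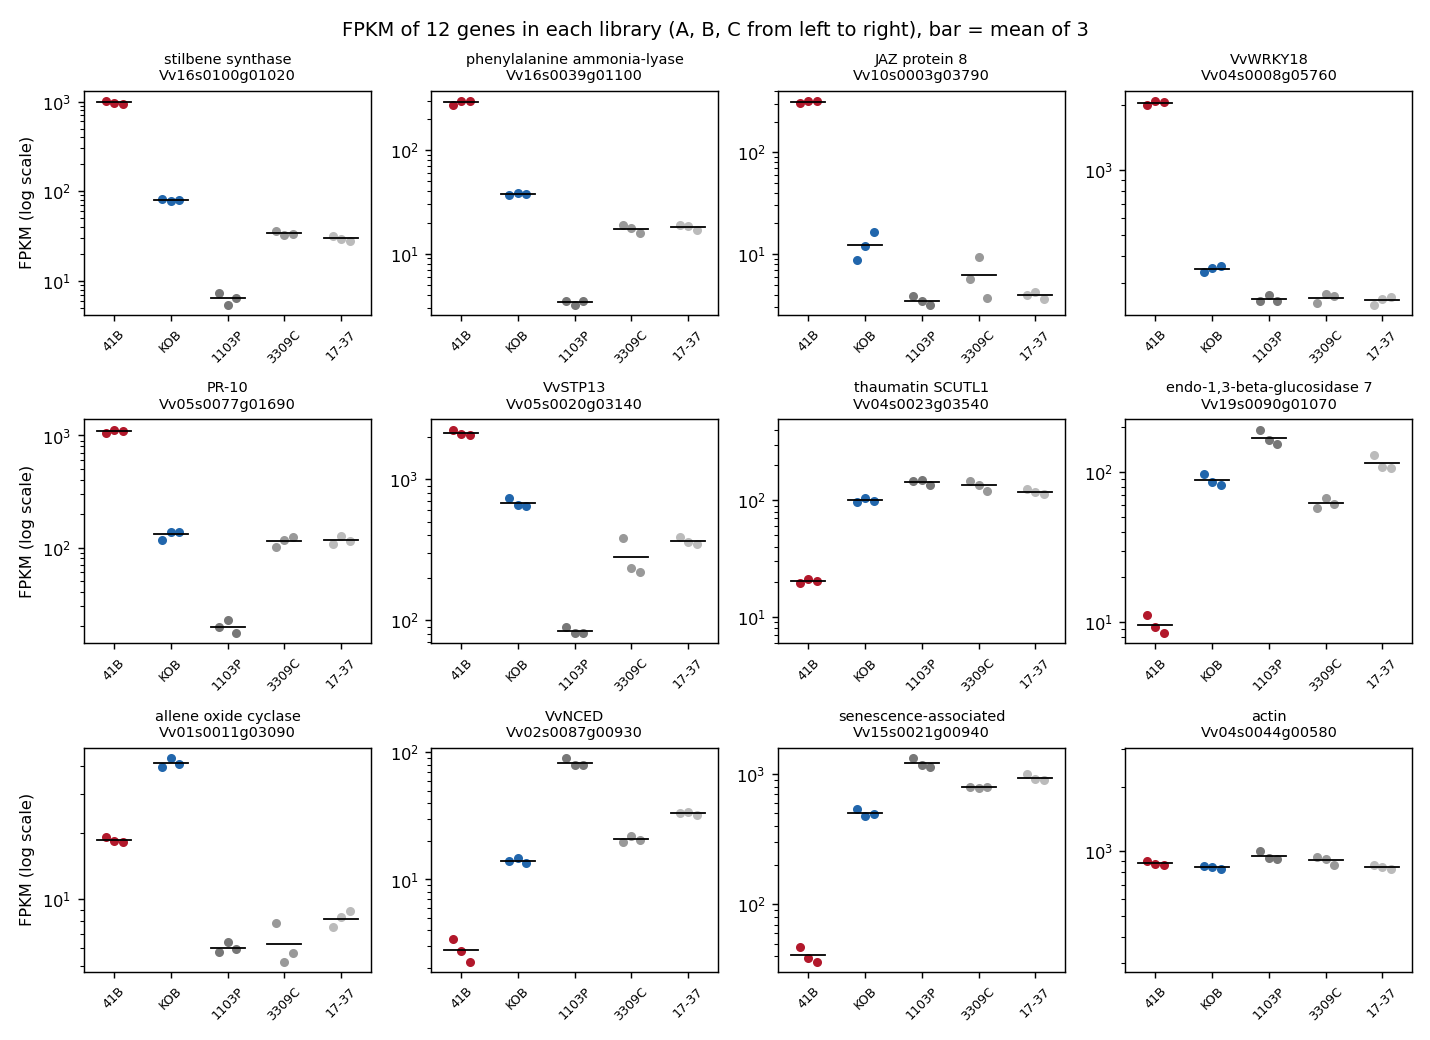
FPKM (y axis, log scale) of 12 genes in each of the 15 libraries, by combination (x axis, points A, B and C from left to right, bar for the mean of 3). GAG-41B stood above GAG-KOB for the stilbene synthase, phenylalanine ammonia-lyase, JAZ8, VvWRKY18, PR-10 and VvSTP13 genes, below it for thaumatin SCUTL1, endo-1,3-beta-glucosidase 7, allene oxide cyclase, VvNCED and the senescence-associated gene, and level with it for actin.

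PR proteins separated the combinations in both directions. Of 23 PR-1, PR-5 and PR-10 proteins, 15 were higher in GAG-41B and 5 lower, and the list median was 0.58, far under that of the stilbene synthases. Summed over the list, the FPKM were highest in GAG-3309C (18014 to 18879), with 11774 to 13042 in GAG-17-37 and 2720 to 2895 in GAG-1103P. They were 15648 to 16158 in GAG-41B and 11622 to 12432 in GAG-KOB, 1.32 times apart. The PR-10 gene Vv05s0077g01690 was the exception, with 1062, 1129 and 1104 FPKM in GAG-41B and 118, 137 and 139 in GAG-KOB (log2 fold change 3.07, standard error 0.10, adjusted p = 1.02e-10, limma). A gene of the same protein type annotated as Bet v I allergen (Vv13s0067g01940) had 82.1, 75.7 and 74.0 FPKM against 12.6, 10.9 and 13.2 (2.66, standard error 0.18). The most abundant PR-10 gene, Vv05s0077g01570, named after its values were seen, had 5454, 5663 and 5682 FPKM against 4250.3, 4355 and 4544, only 1.28 times more. Its values did not overlap, and its log2 fold change was 0.35 (standard error 0.06, adjusted p = 0.000409, limma). With the same FPKM total in each library 11 of the 23 genes were higher and 6 lower.

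The 5 PR genes lower in GAG-41B were all of the thaumatin type (PR-5), proteins with antifungal activity. Thaumatin SCUTL1 (Vv04s0023g03540) had 19.6, 21.0 and 20.4 FPKM in GAG-41B and 96.8, 104 and 97.7 in GAG-KOB (-2.29, standard error 0.07), and the thaumatin gene Vv04s0023g03550 7.18, 6.09 and 5.03 against 24.0, 23.8 and 25.5 (-1.999, standard error 0.13). Vv02s0025g04300, named after its values were seen, had 123, 121 and 122 FPKM against 343, 359 and 365 (-1.54, standard error 0.06). These genes did not share a pattern over the other combinations. The first had 119 to 144 FPKM on average in the other 3, so that GAG-41B stood below all of them, whereas the last had 87.2 in GAG-1103P and 687 in GAG-3309C.

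Chitinases and beta-1,3-glucanases, which attack fungal cell walls or callose, were also split, with 16 of 30 higher in GAG-41B, 6 lower and 8 not called (median 0.72). Among the annotated genes 54.6% were higher and 34.4% lower (median 0.82), so that the share of higher genes is not particular to this list. An acidic endochitinase (Vv16s0050g02220) had 92.9, 89.1 and 89.1 FPKM in GAG-41B and 28.2, 27.7 and 28.6 in GAG-KOB (1.68, standard error 0.09). A beta-1,3-glucanase at low level (Vv09s0002g06880) had 2.36, 2.01 and 1.90 FPKM against 0.283, 0.338 and 0.437 (2.28, standard error 0.55). Of the 6 lower genes 5 were glucanases. The glucan endo-1,3-beta-glucosidase 7 gene Vv19s0090g01070 had 11.2, 9.28 and 8.45 FPKM in GAG-41B and 97.5, 85.6 and 82.3 in GAG-KOB (-3.19, standard error 0.12), and a second gene of this annotation (Vv12s0059g01320) 0.117, 0.103 and 0.101 against 2.72, 2.08 and 1.87. In both genes GAG-41B was lowest of the 5 combinations. An acidic glucanase (Vv06s0061g00100), named after its values were seen, had 139, 115 and 118 FPKM against 382, 315 and 294 (-1.41, standard error 0.16). Here GAG-1103P had the lowest mean, 62.8, and GAG-3309C the highest, 737.

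Receptor and resistance genes were mostly higher in GAG-41B, with changes under 4-fold. The annotated genes were 54.6% higher and 34.4% lower. NBS and disease resistance proteins, which sense pathogen effectors, had 58 higher and 15 lower genes of 79, of which 5 and 1 reached 4-fold (median 1.25). Their levels were low, with a median of 2.86 FPKM in GAG-41B and 1.93 in GAG-KOB. A TIR-NBS-LRR gene (Vv07s0197g00240) had 17.8, 19.3 and 17.7 FPKM against 3.23, 3.49 and 3.32 (2.41, standard error 0.12), and another (Vv00s0160g00310) 3.97, 1.81 and 3.14 against 0.722, 0.407 and 0.156 (2.63, standard error 0.47). An RPP13 variant (Vv15s0046g03210) had 0.227, 0.185 and 0.542 FPKM against 2.96, 3.11 and 3.15 (-3.02, standard error 0.29), and the disease resistance-responsive gene Vv08s0007g06960 0.728, 1.22 and 1.36 against 5.25, 4.22 and 4.17 (-1.98, standard error 0.20). NBS genes also have close copies that share reads. Cf and Hcr receptor-like proteins were higher in 10 of 14 genes and lower in 1. The Cf-2.2 gene Vv18s0089g00650 had 6.28, 4.65 and 4.82 FPKM against 1.35, 0.656 and 0.643 (2.51, standard error 0.34).

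Among receptor kinases, S-receptor, S-locus and lectin kinases were higher in 43 of 55 genes and lower in 4, with 8 lower when the libraries had the same total. In the main fit 54.6% of the annotated genes were higher and 34.4% lower. A lectin protein kinase (Vv03s0038g04170) had 50.9, 60.0 and 56.7 FPKM in GAG-41B and 4.90, 5.31 and 5.16 in GAG-KOB (3.42, standard error 0.10). A second (Vv08s0007g06610) had 13.2, 16.1 and 14.9 against 1.95, 1.77 and 2.06 (2.87, standard error 0.25). The lectin protein kinase Vv18s0041g01210 was among the few defence-annotated genes with the highest mean of the 5 combinations in GAG-KOB, with 3.84, 4.77 and 4.31 FPKM, against 2.11, 2.17 and 1.85 in GAG-41B (-1.04, standard error 0.18). Wall-associated kinases, which bind pectin, were higher in 16 of 19 genes and lower in 2. WAK1 (Vv17s0000g04380) had 14.5, 11.8 and 12.4 FPKM against 1.73, 1.33 and 1.45 (3.02, standard error 0.20), whereas WAK3 (Vv10s0003g05160) had 0.803, 0.551 and 0.565 against 4.37, 3.76 and 3.33 (-2.42, standard error 0.24).

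Calcium genes were mostly higher in GAG-41B as well, beside 54.6% higher and 34.4% lower among the annotated genes. Of 42 calmodulin and calcium-binding proteins 36 were higher, 16 of them at least 4-fold, and 3 lower (median 1.57). Their summed FPKM were 8149.9 to 8867 in GAG-41B and 2056 to 2198 in GAG-KOB, 4.01 times apart. The gene Vv06s0004g00690, annotated with a calmodulin-binding IQ region, had 16.03, 17.3 and 18.8 FPKM against 0.583, 0.857 and 0.878 (log2 fold change 4.34, standard error 0.22), and a calmodulin-binding protein (Vv11s0016g03030) had 2.71, 2.61 and 1.71 against 4.91, 6.13 and 6.17. Glutamate receptors and cyclic nucleotide-gated channels, through which calcium can enter the cell, were higher in 15 of 16 genes and lower in none. Glutamate receptor 2.8 (Vv19s0014g01730) had 6.27, 5.22 and 5.81 FPKM against 1.33, 1.79 and 0.707 (2.17, standard error 0.33).

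WRKY factors were higher in GAG-41B in 26 of 28 genes, 6 of them at least 4-fold (median 1.70). Of the annotated genes 54.6% were higher, and 360 of 2692 at 4-fold. VvWRKY18 (Vv04s0008g05760) had 1990.0, 2078 and 2061 FPKM in GAG-41B and 338, 352 and 359 in GAG-KOB, which was close to the 250.2 to 257 FPKM of the means of the other 3 combinations. Its log2 fold change was 2.55 (standard error 0.05, adjusted p = 2e-12, limma). VvWRKY40 (Vv09s0018g00240) had 1671, 1868 and 1881 FPKM against 451, 507 and 499.7 (1.89, standard error 0.08), and here GAG-KOB was above the others (139 to 309). In Arabidopsis the proteins of these names act together in basal defence. WRKY55 (Vv13s0067g03130) had the largest increase with 38.7, 47.7 and 49.4 FPKM against 5.85, 7.48 and 7.33 (2.70, standard error 0.27). The 2 lower genes were WRKY21 (Vv02s0154g00210), with 11.9, 8.18 and 7.99 FPKM against 23.1, 21.6 and 22.1 (-1.27, standard error 0.16), and WRKY9 (Vv12s0055g00340), with 0.803, 0.942 and 0.919 against 1.563, 1.30 and 1.19. The call of WRKY9 was weak (adjusted p = 0.0395, limma, and up to 0.130 over the alternatives) and was lost without any single library but GAG-KOB C.

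NAC factors, a plant family with members in stress and senescence, were higher in 15 of 19 genes and lower in 2 (median 1.12). Among the annotated genes 54.6% were higher and 34.4% lower (median 0.82). NAC90 is the annotation of Vv08s0007g02940, with 20.03, 21.0 and 17.3 FPKM against 2.07, 1.45 and 3.06 (3.15, standard error 0.43), and of Vv06s0080g00780, with 87.5, 105 and 101 against 11.8, 10.7 and 14.8 (2.98, standard error 0.15). VvNAC17 (Vv19s0014g03290) had 1716, 1685 and 1669 FPKM against 589.6, 561 and 558 (1.57, standard error 0.04). VvNAC39 (Vv07s0031g02610) had 2718, 2505 and 2531 against 816, 787 and 792 (1.69, standard error 0.05). The lower genes were NAC71 (Vv02s0012g01040), with 3.54, 3.01 and 3.08 FPKM against 14.97, 14.4 and 12.5 (-2.08, standard error 0.09), and NAC22 (Vv19s0027g00230), with 98.0, 97.4 and 92.2 against 347, 344 and 343 (-1.85, standard error 0.06). AP2/ERF factors had 20 higher and 6 lower genes of 29. ERF098 (Vv07s0005g03220) had 742, 983 and 1017 FPKM against 69.97, 98.8 and 105 (3.33, standard error 0.22), and ERF003 (Vv04s0008g06000) 7.97, 6.03 and 6.92 against 44.5, 34.7 and 39.3 (-2.49, standard error 0.12). MYB factors were balanced, with 14 higher and 13 lower of 29. The lowest of them, CAPRICE (Vv10s0116g00500), in Arabidopsis a regulator of trichomes and root hairs, had 15.9, 15.99 and 17.3 FPKM against 119.7, 118 and 134 (-2.91, standard error 0.13).

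**Figure D3:**
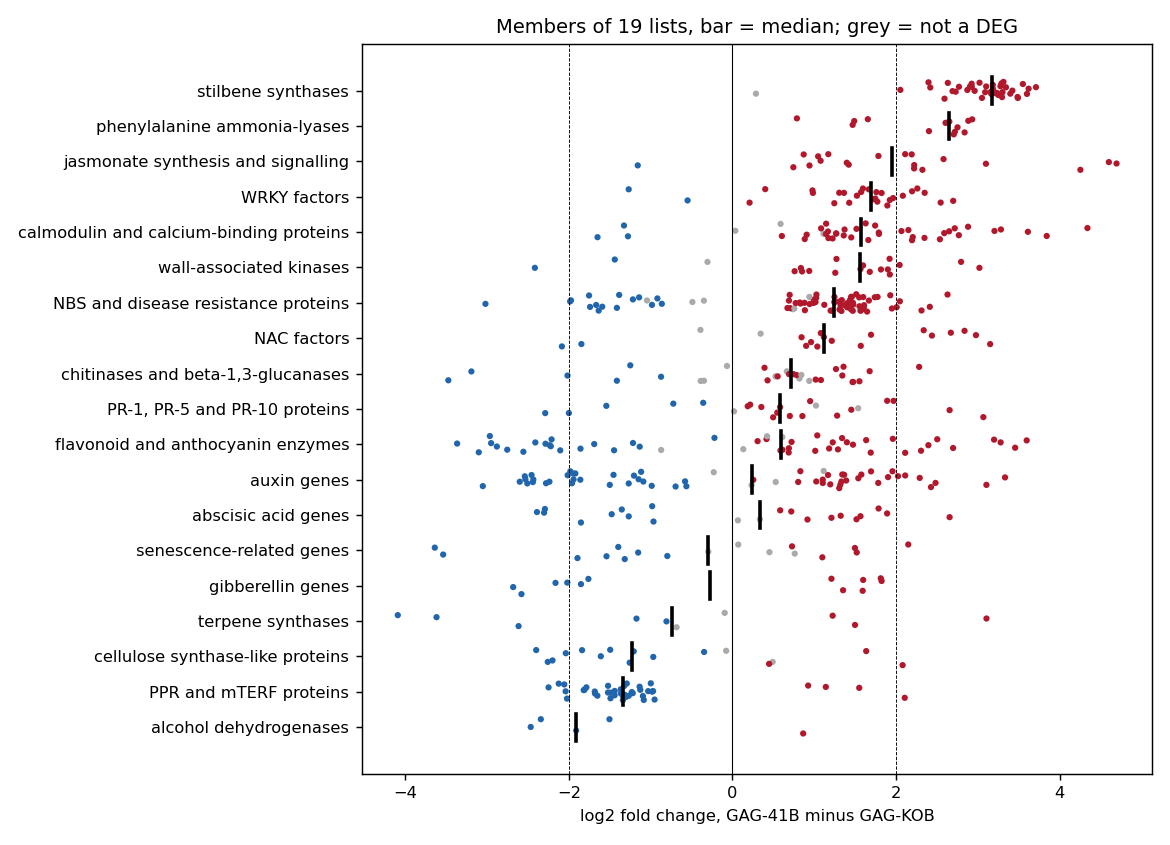
Log2 fold changes (x axis, GAG-41B minus GAG-KOB) of the members of 19 lists (rows, 1 point per gene, bar for the median); red points are DEGs higher and blue points DEGs lower in GAG-41B, and grey points are no DEGs. The stilbene synthases lie between 2.05 and 3.71 but for 1 gene, whereas flavonoid, auxin and abscisic acid genes spread over both sides of 0.

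Jasmonate synthesis and signalling genes were also higher in GAG-41B nearly throughout, with a smaller median change than the stilbene synthases (3.17). Of 20 genes, 19 were higher in GAG-41B, 10 of them at least 4-fold, and 1 was lower (median 1.95). Of the annotated genes 54.6% were higher, and 360 of 2692 at 4-fold. JAZ proteins repress jasmonate responses and are themselves induced by the hormone in Arabidopsis. Both genes annotated as JAZ8 were the extremes of the list. Vv10s0003g03790 had 304, 319 and 318 FPKM in GAG-41B and 8.77, 12.03 and 16.4 in GAG-KOB (log2 fold change 4.70, standard error 0.27, adjusted p = 1.58e-08, limma), and its neighbour Vv10s0003g03800 89.1, 98.9 and 91.2 against 2.59, 4.17 and 4.79 (4.60, standard error 0.46). In the other combinations their means were 3.49 to 6.24 and 0.604 to 2.52 FPKM, so that GAG-KOB lay much nearer to them than to GAG-41B. The most abundant member, a JAZ1 gene (Vv11s0016g00710), named after its values were seen, had 2691, 2690.1 and 2677 FPKM against 592, 595 and 577 (2.19, standard error 0.04). The single lower gene was an allene oxide cyclase (Vv01s0011g03090), an enzyme of jasmonate synthesis, with 19.1, 18.5 and 18.2 FPKM against 39.9, 43.7 and 41.2 (-1.16, standard error 0.12). It had its highest mean in GAG-KOB, with 6.05 to 8.20 FPKM in the other 3 combinations.

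Salicylate-related genes gave no such picture, with 5 higher, 2 lower and 4 not called of 11. A salicylate carboxyl methyltransferase (Vv18s0001g12900), of an enzyme type that makes the volatile methyl salicylate, had 71.4, 81.7 and 79.3 FPKM against 4.91, 5.43 and 6.55 (3.77, standard error 0.14). A salicylate glucosyltransferase (Vv17s0000g07790), which would store the hormone as a conjugate, had 20.8, 20.4 and 21.0 against 41.5, 45.6 and 41.9 (-1.05, standard error 0.06).

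Abscisic acid genes were divided, with 10 higher and 9 lower of 21. The largest increase was that of the Bet v I gene Vv13s0067g01940 (2.66), which is also counted among the PR proteins. VvNCED (Vv02s0087g00930), of the rate-limiting step of abscisic acid synthesis, had 3.41, 2.75 and 2.25 FPKM in GAG-41B and 14.1, 14.7 and 13.4 in GAG-KOB (-2.30, standard error 0.11, adjusted p = 3.43e-09, limma). GAG-KOB was in turn below the means of GAG-3309C (20.7), GAG-17-37 (33.2) and GAG-1103P (83.2). CYP707A3 (Vv18s0076g00340), an enzyme that breaks the hormone down, was named after its values were seen and had 20.9, 23.2 and 23.2 FPKM against 5.67, 6.34 and 5.91 (1.89, standard error 0.10). The homeobox gene ATHB-6 (Vv18s0001g06430) had 0.248, 0.381 and 0.558 FPKM against 2.65, 2.05 and 2.58 (-2.39, standard error 0.26). Auxin genes were as even, with 27 higher and 28 lower of 59. A GH3-like gene (Vv12s0034g00640), of a family that couples hormones to amino acids, had 3.09, 4.66 and 4.85 FPKM against 0.310, 0.209 and 0.480 (3.33, standard error 0.45). An indole-3-acetate glucosyltransferase (Vv05s0094g01010) had 1.70, 1.88 and 2.18 against 17.9, 15.7 and 16.2 (-3.05, standard error 0.13). Gibberellin genes were 6 higher and 6 lower of 12, and the gibberellin-inactivating oxidases themselves went both ways. Vv19s0140g00120 had 1826, 1588 and 1574 FPKM against 503, 454 and 449.9 (1.82, standard error 0.08), and Vv05s0077g00520 4.54, 6.54 and 6.53 against 35.3, 39.1 and 38.7 (-2.68, standard error 0.13).

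Sugar transporters and invertases were higher in 6 and lower in 4 of 13 genes. VvSTP13 (Vv05s0020g03140), whose counterpart in Arabidopsis takes up hexoses from the apoplast, had 2247, 2076 and 2066 FPKM in GAG-41B and 731, 660.0 and 646 in GAG-KOB (1.65, standard error 0.16), against 84.0 to 366 on average in the others. The order of GAG-41B, GAG-KOB and the rest was thus that of the stilbene synthases. An ERD6-like transporter (Vv05s0020g02170) had 2.15, 1.96 and 1.96 FPKM against 0.587, 0.165 and 0.340 (2.30, standard error 0.33). A nodulin MtN3 gene (Vv17s0000g00830), of a family of sugar exporters, had 19.7, 12.6 and 13.2 FPKM against 47.2, 28.1 and 30.3 (-1.20, standard error 0.32). In both groups its replicate A stood apart, above B and C. Alcohol dehydrogenases were lower in 4 of 5 genes. Alcohol dehydrogenase 6 (Vv04s0044g01110) had 139.9, 151 and 149.8 FPKM against 775, 829 and 834 (-2.47, standard error 0.08), and its mean was 2603 FPKM in GAG-3309C. The higher gene (Vv14s0068g01760) had 104, 121 and 115 against 55.1, 67.4 and 64.1 (0.87, standard error 0.10).

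Genes of the cell wall differed by family. Expansins and xyloglucan enzymes, which loosen the wall during growth, were higher in 15 and lower in 5 of 23 genes (median 1.47). A xyloglucan endotransglucosylase (Vv11s0052g01180) had 9.32, 10.1 and 8.85 FPKM against 1.21, 0.721 and 0.637 (3.36, standard error 0.22), and alpha-expansin 1 (Vv17s0053g00990) 0.342, 0.706 and 0.803 against 3.46, 3.72 and 3.63 (-2.43, standard error 0.26). Cellulose synthase-like proteins were lower in 11 and higher in 3 of 16 (median -1.23). CSLB04 (Vv12s0059g00960) had 1.22, 1.16 and 1.25 FPKM against 6.75, 5.91 and 5.19 (-2.20, standard error 0.09), and CSLC12 (Vv18s0001g08580) 17.3, 19.2 and 17.9 against 3.97, 4.20 and 4.47 (2.08, standard error 0.10).

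PPR and mTERF proteins, which process and transcribe RNA in chloroplasts and mitochondria, were the most uniform group with higher expression in GAG-KOB. Of 41 genes, 37 were lower in GAG-41B and 4 higher, against 25.6% lower of all genes tested and 34.4% of the annotated genes. The lower genes had log2 fold changes between -2.25 and -0.95, and the list median was -1.34. Summed over the list, the FPKM were 88.1 to 91.2 in GAG-41B, 129 to 143 in GAG-KOB and 221 to 228 in GAG-1103P. GAG-41B was lowest of the 5 combinations in 37 of the genes, and GAG-KOB was highest in none. An mTERF gene (Vv08s0007g02500) had 2.45, 1.16 and 2.18 FPKM against 10.4, 7.01 and 8.05 (-2.12, standard error 0.24), and a PPR gene (Vv09s0002g00230) 10.6, 9.51 and 9.28 against 2.46, 1.89 and 2.27 (2.11, standard error 0.17). Most of these genes were low, with a median of 0.538 FPKM in GAG-41B and 1.93 in GAG-KOB.

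Of 12 photosynthesis genes 6 were higher, 5 lower and 1 not called. The 6 higher genes include the 5 that served as a check of leaf tissue. These are 3 genes annotated as LHCII type I CAB-1 and 2 as LHCB3, antenna proteins of photosystem II, and all were found in each of the 6 libraries. The most abundant (Vv10s0003g02890) had 274, 296 and 277 FPKM in GAG-41B and 77.1, 89.9 and 76.9 in GAG-KOB (1.80, standard error 0.07). LHCB3 (Vv00s0181g00180) had only 2.32, 3.12 and 2.33 FPKM against 0.444, 0.420 and 0.964 (adjusted p = 0.0200, limma, and up to 0.155 over the alternatives), and its call was lost without GAG-41B B, GAG-KOB A or GAG-KOB B. The 5 lower genes are annotated as a plastocyanin domain protein, ferredoxin, PETC, psbZ and PsbP, of photosystem II or the electron transport after it. The plastocyanin domain gene (Vv11s0037g00290) had 2.47, 2.39 and 0.389 FPKM in GAG-41B and 5.66, 5.64 and 8.01 in GAG-KOB (-2.14, standard error 0.58, adjusted p = 0.00773, and 0.0505 with the 6 libraries alone, limma). The psbZ gene (Vv12s0059g01810), named after its values were seen, had 13.5, 12.4 and 11.1 against 43.7, 35.8 and 38.3 (-1.66, standard error 0.12). In bulk leaves, fewer cells of a type and less RNA per cell cannot be told apart.

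Senescence-related genes were checked because the leaves were labelled as non-senescing, and 5 were higher and 8 lower in GAG-41B of 17. Their summed FPKM were 1422 to 1674 in GAG-41B and 1261 to 1370 in GAG-KOB, and 2298 to 2557 in GAG-1103P. Most of the sum in GAG-41B came from Vv01s0011g05250, with a mean of 1219 of 1523 FPKM, against 274 of 1309 in GAG-KOB. The other members together were lower in GAG-41B than in GAG-KOB. The stay-green gene Vv02s0025g04660 had 63.0, 59.5 and 61.2 FPKM against 232, 222 and 229.8 (-1.89, standard error 0.04), and pheophorbide a oxygenase (Vv06s0061g00790) 55.6, 52.3 and 52.2 against 101, 90.5 and 87.5 (-0.80, standard error 0.07). Both act in the breakdown of chlorophyll and were named after their values were seen. The largest changes belonged to genes annotated only as senescence-associated. Vv15s0021g00940 had 47.0, 38.5 and 36.3 FPKM against 541, 473 and 498 (-3.64, standard error 0.09), and Vv01s0011g05250 1362, 1175 and 1121 against 296, 257 and 269.6 (2.15, standard error 0.13). The part of leaf age in the other differences was not tested. Heat shock proteins and factors were 7 higher and 7 lower of 14. A heat shock protein (Vv01s0026g00910) had 808, 847 and 898 FPKM against 135, 143 and 177 (2.49, standard error 0.14), and a small heat shock protein (Vv09s0002g06790) 2.49, 2.29 and 2.48 against 8.53, 9.83 and 12.2 (-2.01, standard error 0.15).

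**Figure D4:**
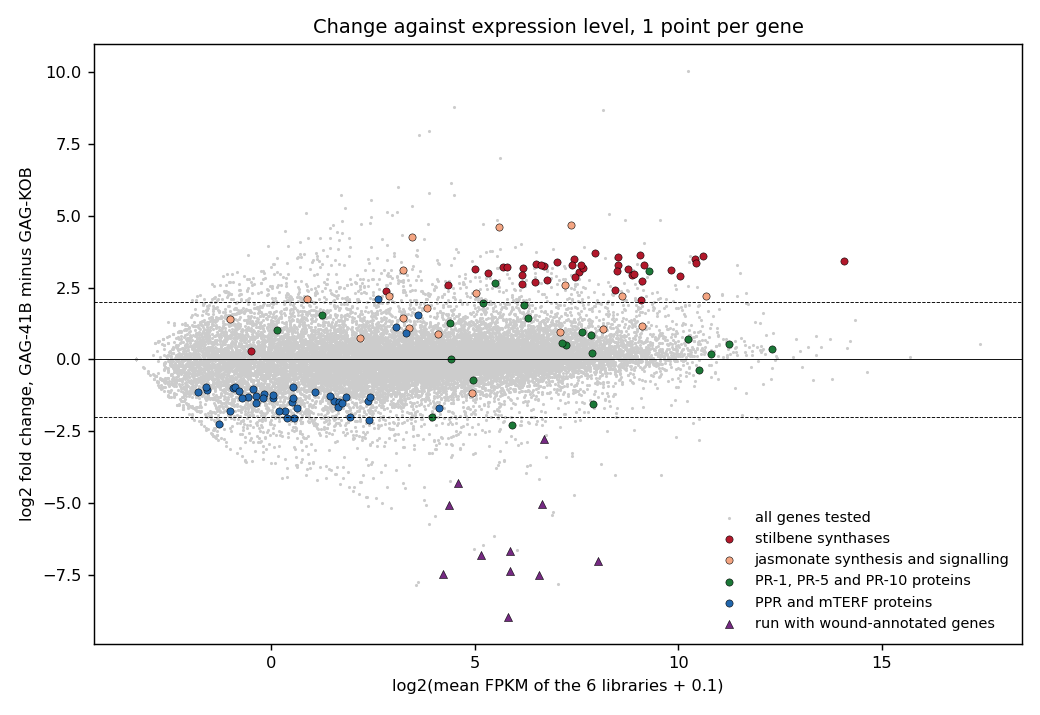
Log2 fold change (y axis, GAG-41B minus GAG-KOB, dashed lines at 2 and -2) against the mean expression in the 6 libraries (x axis, log2 of FPKM + 0.1) for the 21364 genes tested (grey) and 4 lists (circles); triangles are the 11 neighbouring genes of the run with wound annotations. The stilbene synthases form a band above 2 over a wide range of levels, and the triangles lie between -2.79 and -8.96.

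The largest decrease in GAG-41B was found in a group of neighbouring genes. Along the identifiers of chromosome 12, 11 consecutive tested genes from Vv12s0057g00060 to Vv12s0057g00190 were 4-fold lower in GAG-41B, with log2 fold changes between -8.96 and -2.79. The study annotates 7 of them as wound-induced or wound-responsive, a label for small proteins of little known function. Summed over the run, the FPKM were 40.3 to 49.0 in GAG-41B, 1424 to 1727 in GAG-KOB, 1947 to 2159 in GAG-1103P, 2701 to 3223 in GAG-3309C and 1829.6 to 2201 in GAG-17-37. GAG-KOB thus stood with the other 3 combinations, at the low end, and GAG-41B alone apart from all 4.

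Single members of the run show the same. Vv12s0057g00170 had 0.8001, 0.999 and 0.975 FPKM in GAG-41B and 149, 209 and 208 in GAG-KOB (-7.52, standard error 0.16, adjusted p = 3.65e-12, limma). Vv12s0057g00180 had 0.351, 0.960 and 0.625 against 122, 112 and 112 (-7.36, standard error 0.23). The most abundant, Vv12s0057g00090, had 1.64, 6.99 and 4.87 against 447, 554 and 553 (-7.03, standard error 0.36), and Vv12s0057g00100 had 1.31, 0.692 and 1.13 against 104, 121 and 118 (-6.69, standard error 0.16). The libraries of a group were far closer to each other than the groups. Vv12s0057g00120, without annotation, was listed at 0, 0 and 0.975 in GAG-41B and had 88.1, 119.6 and 127 FPKM in GAG-KOB. Just beyond the run, Vv12s0057g00210 had 0, 4.49 and 4.38 FPKM against 140.1, 111 and 133, while its neighbour Vv12s0057g00200, named after its values were seen, was under 2 FPKM in every combination. The next gene, Vv12s0057g00220, named in the same way, was also 4-fold lower but remained abundant in GAG-41B. It had 445, 468 and 469 FPKM against 1860, 2319 and 2290 (-2.22, standard error 0.14). Genes of such a run can be near copies that share reads, so that the number of genes says less than their sum.

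**Figure D5:**
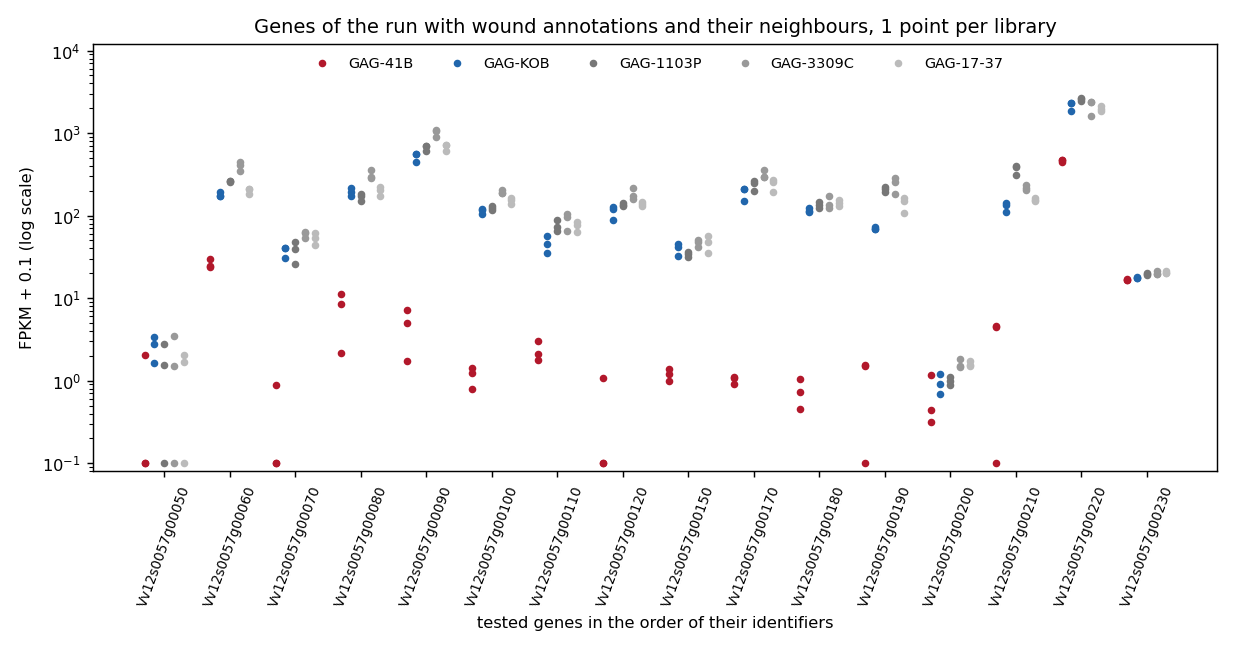
FPKM + 0.1 (y axis, log scale) of the tested genes from Vv12s0057g00050 to Vv12s0057g00230 in the order of their identifiers (x axis), 1 point per library, coloured by combination. From Vv12s0057g00060 to Vv12s0057g00190 the GAG-41B points (red) lie below all others, and at Vv12s0057g00230 the 5 combinations are level.

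Other 4-fold DEGs also stood side by side. Runs of at least 4 neighbouring tested genes changed in the same direction numbered 10, and 9 of them were higher in GAG-41B. Both longest, with 17 genes each, were stilbene synthase runs on chromosome 16 (Vv16s0100g00750 to Vv16s0100g00950, median 3.10, and Vv16s0100g00990 to Vv16s0100g01200, median 3.18), and 6 more stilbene synthases formed a run on chromosome 10 (from Vv10s0042g00860, median 3.24). On chromosome 1, calcium-binding and calmodulin genes gave runs of 6 (from Vv01s0010g02930, median 3.56) and 4 (from Vv01s0010g03000, median 4.04). On chromosome 4, 7 genes that include aspartyl proteases (from Vv04s0008g07130, median 2.87) were higher, on chromosome 14 6 genes with AAA-type ATPases (from Vv14s0066g02060, median 2.47) and on chromosome 16 5 phenylalanine ammonia-lyases (from Vv16s0039g01100, median 2.84). By chromosome, the share of tested genes 4-fold higher in GAG-41B was largest on 16 (6.67%) and the share 4-fold lower on 12 (4.64%), where the runs lie.

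Among the annotated genes, the 5 largest increases in GAG-41B came from different kinds of genes. An anthraniloyl-CoA methanol acyltransferase (Vv02s0033g01030), of the enzyme that makes the volatile methyl anthranilate in grape, had 73.9, 69.6 and 68.7 FPKM against 2.38, 3.10 and 2.30 (4.73, standard error 0.16). An ALMT1-type gene (Vv06s0080g00170), of a family of malate channels, had 28.1, 25.6 and 29.0 against 1.29, 0.893 and 0.732 (4.72, standard error 0.30). A leucine-rich repeat receptor-like kinase (Vv07s0005g04040) had 5.93, 4.67 and 4.82 FPKM against 0.163, 0.109 and 0.0972 (4.56, standard error 0.30). Both JAZ8 genes were the others, and in each of the 5 the 3 values of a group did not overlap with those of the other.

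Over all genes, annotated or not, with a mean of at least 1 FPKM in the 6 libraries and no overlap between the groups, the 3 largest fitted changes in each direction were those of Vv12s0057g00120, described above, and of 5 genes listed at 0 in a whole group, for which no fold is given. For Vv07s0197g00120 the GAG-41B libraries showed 45.1, 54.0 and 35.1 FPKM, and each of the remaining 12 showed 0. Vv10s0092g00780 had 25.8, 49.5 and 12.1 FPKM and Vv00s0276g00060 12.3, 37.1 and 24.2, and both were listed at 0 in GAG-KOB and detected in other combinations. Vv00s0256g00040 and Vv18s0089g00980 were listed at 0 in GAG-41B and had 22.8, 25.5 and 21.3, and 41.6, 14.3 and 16.4 FPKM in GAG-KOB. After division by the worth of a read in replicates B and C, the values of these 5 genes stood as 3 to 2, 4 to 1, 3 to 2, 4 to 3 and 1 to 1. They may rest on as few reads, and a transcript could then have been missed in a library listed at 0. The call of Vv10s0092g00780 (adjusted p = 0.0171, limma) was lost without GAG-41B B (adjusted p = 0.0539). The 4-fold DEGs listed at 0 in a whole group were 26 of the 524 higher genes and 36 of the 414 lower ones.

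The position of GAG-KOB among the 5 combinations differed by direction. Of the 524 genes at least 4-fold higher in GAG-41B than in GAG-KOB, 520 had their highest mean in GAG-41B, and the lowest was in GAG-1103P for 363 and in GAG-KOB for 44. Of the 414 lower genes, 400 had their lowest mean in GAG-41B, whereas the highest was in GAG-1103P for 175, GAG-3309C for 110, GAG-KOB for 68 and GAG-17-37 for 61. GAG-41B was therefore the extreme combination in both directions for most 4-fold DEGs, and GAG-KOB was the highest for 16.4% of the lower ones. This follows in part from choosing genes by the same GAG-41B values and is a description only. Among the 68, a lateral organ boundaries gene (Vv14s0006g02950), named after its values were seen, had 215, 249 and 245 FPKM in GAG-KOB, against 4.74, 6.80 and 6.16 in GAG-41B, and means of 100.2 to 212 in the others (-5.31, standard error 0.11). A bHLH gene (Vv18s0001g08040), chosen in the same way, reached 35.1, 40.9 and 39.3 FPKM on Kober 5BB, against 4.27, 2.74 and 3.75 on 41B (-3.41, standard error 0.17).

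GAG-41B and GAG-KOB were the first and second by mean level for 40 of 40 stilbene synthases, 16 of 16 glutamate receptors and channels, 24 of 28 WRKY factors, 14 of 19 NAC factors and 15 of 20 jasmonate genes. The same order was found for 12 of 30 chitinases and glucanases and 7 of 23 PR proteins, and for 4543 of all 21364 genes. All genes are not a matched background here. The lists come from genes that the study selected mostly for differences between GAG-41B and GAG-1103P. The rank of GAG-41B is thus in part fixed by that choice, and these counts are a description only. For 8 of the 23 PR proteins the highest mean was in GAG-3309C. GAG-KOB had the highest mean in 4 of 55 S-receptor, S-locus and lectin kinases, 3 of 12 gibberellin genes and 2 of 30 chitinases and glucanases, against 9.70% of all genes tested.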

How the data were processed

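Single-end reads of 15 leaf libraries were quality filtered, trimmed and aligned by the authors to the PN40024 genome with TopHat2 2.0.14 and Bowtie2 2.2.4. Cufflinks 2.2.0 then gave the deposited FPKM values, which the authors normalized between libraries by its geometric method. The submitters' processing notes also name CASAVA 1.8.2 and DESeq 1.6.3. Library preparation did not mark the strand, so that overlapping genes on opposite strands cannot be told apart. Read counts were not used here, and no count-based test was run. The FPKM do not state the depth of a library, and read totals were not used here. The spread of 3 replicates gave the precision.

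Combination and letter came from the sample labels. All 15 columns of values were matched by name and 0 were left out. limma 3.58.1 in R 4.3.3 was fitted to log2(FPKM + 0.1) with a mean for each combination and a variance trend, for genes whose mean over all libraries reached 0.1 FPKM. The script was tested on simulated data. Python 3.11.15, pandas 2.3.3, numpy 2.4.6 and matplotlib 3.10.9 made the summaries and plots. Alternatives were an added value of 1 or 0.01, no filter or a filter at 1 FPKM, 3 other scalings, the 6 libraries alone, the replicate letter as a block, an adjusted p of 0.005, the ratio of means, and leaving out each of the 6 libraries.

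Lists are word searches in the study's annotations of 2692 genes, 32 in all. The members and lists were chosen with earlier results of these data known. Of the identifiers, 0 matched the RefSeq gene table at hand (ASM3070453v1), so that coordinates and sequences are not given. The rule for named genes took those the study names with an identifier, the largest DEG in each direction of each list (2 for stilbene synthases, PR and glucanase lists, NBS proteins, lectin-type kinases, WRKY, NAC and jasmonate genes), the 5 largest annotated genes and the 3 largest of all, each at 1 FPKM or more on average in the 6 libraries and without overlap between groups. It names 94 genes.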

Additional observations from a re-analysis of the deposited data

How the results depend on the processing

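Scaling each library to the same FPKM total gave 3112 higher and 9404 lower DEGs, and an added value of 1 in place of 0.1 gave 491 4-fold DEGs, 338 higher and 153 lower. No other alternative moved the counts of DEGs or 4-fold DEGs by over 1.5 times. Without each of the 6 libraries in turn, the DEGs numbered 10301 to 10674 (5334 to 5571 higher, 4962 to 5227 lower) and the 4-fold DEGs 926 to 968 (506 to 532 higher, 408 to 441 lower). Over the 32 lists, 22 recounts of higher or lower genes moved by over 1.5 times and 1066 did not. Of the 94 named genes, actin (Vv04s0044g00580) changed sign, to -0.34 with quantile normalization (adjusted p = 0.00209, limma) and to -0.27 with the same FPKM total (adjusted p = 0.000786, limma). With the same FPKM total the median of all genes moved alike, from 0.01 to -0.29, and ubiquitin from -0.07 to -0.40. With quantile normalization the median of all genes was -0.04, and the cause of the change in actin there was not tested. Over all named genes and alternatives, a call was lost 22 times, gained 2 times in ubiquitin besides those of actin, and stayed as it was 1657 times.

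Whether the letters pair the libraries stayed unclear. Over 17852 genes, deviations of same-letter libraries from their group means correlated at 0.07 (A), -0.03 (B) and -0.02 (C). Those of different letters correlated at -0.06 to 0.09. Replicate A nevertheless stood on the same side in all 5 combinations in some sums. The summed calmodulin and calcium-binding genes, for example, were lowest in A in each. The main fit had no term for the letter. With the letter as a replicate block the fit over all 15 libraries gave 12862 DEGs and 950 4-fold DEGs, against 11357 and 938 without it. Over the 6 libraries it gave 11782 and 880, against 10869 and 886.

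Read totals were not used here, and low genes are given without a counting error.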
